A study of Mus musculus with 6 samples.

Results

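Glucose uptake into neurons and its breakdown to lactate were followed through 10 genes in the hippocampus (HIPP) of mice given methamphetamine (MA). The genes were chosen by name: Slc2a3, Hk1, Pfkp, Pfkfb3, Aldoa, Pgk1, Eno2, Pkm, Ldha and Ldhb. By the study's methods, each treatment group had 12 mice. All 10 genes were found by symbol among the 16060 rows of the deposited table, each on 1 row, and all 10 passed the filter on low values that left 13321 genes for testing. RNA of 3 mice labelled as saline controls and 3 labelled MA was sequenced, with 1 library per mouse, all of the C57BL/6 strain and all from the hippocampus. By the study's methods, adult males received intraperitoneal saline, or MA at 5 mg/kg in the first week, 10 mg/kg in the second and 15 mg/kg in the third, and were killed after behavioral tests on day 22. Neither a genotype other than the strain nor an exact age is given. The comparison asks whether these genes differed between the hippocampus of MA and control mice.

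Glycolysis splits glucose into pyruvate in the cytosol and yields ATP and NADH. Hexokinase traps glucose as its phosphate, phosphofructokinase commits it to the pathway, and the later steps up to pyruvate kinase return ATP. Lactate dehydrogenase then interconverts pyruvate and lactate. In the brain, the transporter GLUT3 (Slc2a3) serves mainly neurons, GLUT1 (Slc2a1) serves endothelium and astrocytes, and astrocytes are known to export lactate that neurons can use.

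No member differed between the groups past the adjusted threshold. With limma's p adjusted by Benjamini-Hochberg across all 13321 genes, 0 of the 10 members lay under 0.05, against 0.263% of all tested genes. At an unadjusted p under 0.05, 1 member passed, Ldhb, which was lower in the libraries labelled MA. The background at that threshold was 10.4% of all tested genes. In the direction of lower values the background was 5.46%. In 5 members, from the transporter Slc2a3 to the pyruvate kinase gene Pkm, MA replicates 1 and 2 were above and MA replicate 3 below every control, so the spread within the MA group exceeded the distance between the groups.

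Values are those of the deposited table, which is named as RPKM (reads scaled by gene length and by library total) although its range fits only logarithms, taken here as log2 with 1 added first. Log2 fold changes are MA minus Control, from the group means. The 6 libraries share their highest value, 12.3, and differ by at most 0.0285 at any rank above the median. They had thus been brought to one distribution, and highly expressed genes of equal rank carry the very same value in different libraries. MA replicate 3 stood apart. Its mean Pearson correlation with the other libraries of its group, across tested genes, was 0.978, against 0.984 to 0.993 for the other libraries (genes are not independent replicates), and limma's sample quality weight was 0.194 against 0.937 to 2.45. Markers of neurons, astrocytes, oligodendrocytes, microglia and hippocampal principal cells were present in every library, with none at the lowest value of a library. That value was 0, except in MA replicate 3, where it was 0.000206 and no gene was listed at 0. Arc, an activity-induced gene used here to show the direction of the table, was 6.67, 6.23 and 6.22 in the control libraries and 4.77, 4.40 and 4.54 in the libraries labelled MA (log2 fold change -1.80, limma adjusted p = 0.0181), and Fos, Egr1 and Nr4a1 were likewise lower in each library labelled MA than in each control. The study's own account gives the opposite direction for these activity genes under MA, both in its RNA-seq and in its qPCR of 3 samples per group. Whether the columns of the table are exchanged, or the fold changes of that account inverted, could not be settled from the files, so it is uncertain which columns are MA. Each higher or lower given here is that of the columns as named and would turn if they were exchanged, whereas the size of a difference, its p and the spread within a group would not. In whole tissue, fewer cells of one type and less RNA per cell cannot be told apart.

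The promoters of 4 members are shown because these genes carry the results that follow. Ldha and Ldhb are the one pair of partner genes whose balance did not overlap between the groups, and Aldoa and Hk1 have the same pattern across libraries. Each line gives 250 bases before an annotated RefSeq start on GRCm38.p6, read 5′ to 3′ along the gene, with ACGTG on either strand in capitals. ACGTG is a form of the core of the hypoxia response element, and a palindromic E-box CACGTG holds it on both strands. The variant GCGTG was not searched for, so a window without ACGTG is not shown to lack that core.
Ldha, chr7:46845554-46845803, plus strand: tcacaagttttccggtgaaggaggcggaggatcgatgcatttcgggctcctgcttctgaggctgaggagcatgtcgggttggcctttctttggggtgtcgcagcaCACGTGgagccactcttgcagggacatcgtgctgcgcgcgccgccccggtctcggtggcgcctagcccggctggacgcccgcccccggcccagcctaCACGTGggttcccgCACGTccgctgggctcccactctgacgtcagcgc
Ldhb, chr6:142507958-142508207, minus strand: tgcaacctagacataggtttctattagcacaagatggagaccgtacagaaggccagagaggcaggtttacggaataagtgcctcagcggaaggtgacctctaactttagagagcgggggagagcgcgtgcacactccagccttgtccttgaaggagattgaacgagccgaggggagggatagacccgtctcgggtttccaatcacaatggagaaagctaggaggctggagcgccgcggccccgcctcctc
Aldoa, chr7:126799255-126799504, minus strand: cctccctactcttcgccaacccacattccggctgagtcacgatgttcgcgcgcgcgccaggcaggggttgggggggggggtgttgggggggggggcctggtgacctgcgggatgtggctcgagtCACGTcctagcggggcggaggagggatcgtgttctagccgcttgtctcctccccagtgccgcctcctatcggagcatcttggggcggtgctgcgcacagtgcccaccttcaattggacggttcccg
Hk1, chr10:62379909-62380158, minus strand: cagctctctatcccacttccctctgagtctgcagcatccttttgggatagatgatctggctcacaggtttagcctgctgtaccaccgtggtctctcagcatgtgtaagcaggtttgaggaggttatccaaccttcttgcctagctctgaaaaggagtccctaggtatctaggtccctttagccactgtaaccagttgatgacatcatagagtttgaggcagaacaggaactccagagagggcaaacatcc
The Ldha window holds ACGTG at 3 places, of which 2 lie inside an E-box CACGTG, and the windows of Ldhb and Hk1 hold none. A second Ldha window, at chr7:46846832-46847081, a second Hk1 window, at chr10:62340422-62340671, and another Aldoa window, at chr7:126800448-126800697, hold none either. The RefSeq table had promoters for 9 of the 10 members in 15 windows, as several genes have more than 1 start, and Slc2a3 had no entry. ACGTG occurred in windows of 5 of the 9 members, in 7 of the 15 windows and in 16.6% of all 32851 windows. Of the 7, 2 are overlapping Aldoa windows that hold the same site. CACGTG was found in 2 of the 15 (6.02% of all), TGACG, the core of the cAMP response element, in 4 (17.8% of all), and CCGCCC, the GC box, in 8 (32.7% of all). TGACG can overlap ACGTG. These are matches of letters on both strands and show no binding.

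The members spanned a wide range of levels. On the scale of log2 RPKM, which is per length and so allows genes to be compared, the order of the control means was Aldoa (10.4), Pkm (9.54), Ldhb (8.44), Eno2 (8.39), Pgk1 (7.79), Ldha (7.64), Hk1 (6.31), Pfkp (5.93), Slc2a3 (4.96) and Pfkfb3 (2.96). Ldhb and Eno2 overlapped in the control libraries and so did Pgk1 and Ldha, whereas each other neighbour in this order was separated in all 6 libraries. The enzymes of the later, ATP-yielding steps thus stood above the transporter and the enzymes of the phosphofructokinase step.

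Slc2a3 (ENSMUSG00000003153; GRCm38 chromosome 6, 122727809 to 122801640, minus strand, 14 exonic stretches) encodes the neuronal glucose transporter GLUT3. It was 4.91, 4.92 and 5.06 in control replicates 1 to 3 and 5.10, 5.20 and 4.77 in MA replicates 1 to 3. MA replicates 1 and 2 lay above each control and MA replicate 3 below each, and the log2 fold change was 0.06 (95% interval -0.23 to 0.35, limma adjusted p = 0.918). The predicted gene Gm4482 overlaps Slc2a3 on its own strand, so reads could be shared between them.

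Hk1, the main hexokinase of the brain, lies on chromosome 10 from 62268855 to 62379908, and the antisense Hk1os overlaps it on the other strand. Its values were 6.29, 6.32 and 6.31 in the controls and 6.50, 6.55 and 6.22 in the MA libraries. The control libraries differed little (SD 0.0153, n = 3) and the MA libraries more (SD 0.176, n = 3), and the log2 fold change was 0.11 (95% interval -0.12 to 0.35, limma adjusted p = 0.751). Pfkp, the platelet type of phosphofructokinase and one of its forms in brain, was 5.88, 5.88 and 6.04 in the controls and 6.17, 6.07 and 5.95 in the MA libraries. The groups overlapped through MA replicate 3, and the log2 fold change was 0.13 (95% interval -0.08 to 0.34, limma adjusted p = 0.682).

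Pfkfb3 makes fructose 2,6-bisphosphate, the strongest activator of phosphofructokinase. Neurons are known to keep its protein low, whereas astrocytes hold more of it. It was the member with the lowest level, at 3.13, 2.97 and 2.76 in the controls and 2.64, 2.88 and 2.33 in the MA libraries. Its log2 fold change of -0.34 was the largest in size among the members, but MA replicate 2 lay within the controls and the 95% interval ran from -0.72 to 0.04 (limma adjusted p = 0.534; exact permutation test, two-sided, p = 0.2). Without MA replicate 3 it was -0.20.

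Aldoa splits fructose 1,6-bisphosphate into triose phosphates. It was 10.42, 10.39 and 10.39 in the controls (SD 0.0171, n = 3) and 10.49, 10.56 and 10.32 in MA replicates 1, 2 and 3, a log2 fold change of 0.06 (95% interval -0.13 to 0.25). Pgk1, the X-linked kinase of the first ATP-yielding step, was 7.88, 7.66 and 7.83 in the controls and 7.97, 8.03 and 7.71 in the MA libraries. The log2 fold change of Pgk1 was 0.12 (95% interval -0.14 to 0.37), and the groups overlapped again through MA replicate 3. Both genes have named copies in GENCODE, 4 for Aldoa and 3 for Pgk1, among which reads could be split.

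Eno2 encodes the neuronal enolase. Its values were 8.40, 8.38 and 8.40 in the controls and 8.47, 8.49 and 8.18 in the MA libraries. Pkm, which encodes both muscle and embryonic pyruvate kinase from one gene by splicing, was 9.54, 9.49 and 9.58 in the controls and 9.63, 9.64 and 9.37 in the MA libraries. In both genes MA replicates 1 and 2 stood above each control and MA replicate 3 below each, and the means almost met, with log2 fold changes of -0.01 for Eno2 (95% interval -0.23 to 0.22) and 0.01 for Pkm (95% interval -0.20 to 0.23). A table of gene totals does not separate the splice forms of Pkm.

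Ldha encodes the lactate dehydrogenase subunit that favours making lactate. It was 7.66, 7.68 and 7.57 in the controls and 7.67, 7.70 and 7.62 in the MA libraries, the narrowest range among the members, with a log2 fold change of 0.03 (95% interval -0.13 to 0.19). Ldha has 2 named copies in GENCODE, among which reads could be split, and Ldhb has none. Ldhb (ENSMUSG00000030246; chromosome 6, 142490249 to 142507957, minus strand, 9 exonic stretches) encodes the subunit that favours turning lactate into pyruvate. It was 8.36, 8.50 and 8.45 in the controls and 8.31, 8.24 and 8.25 in the libraries labelled MA. This was the only member whose groups did not overlap, which was also true of 17.5% of all tested genes. The log2 fold change of Ldhb was -0.17 (standard error 0.07, 95% interval -0.33 to -0.0007, 0.890-fold), with an unadjusted p of 0.0493 and an adjusted p of 0.476 (limma). By exact permutation, two-sided, p was 0.1, which is the lowest value this design can reach. A fit with a replicate block gave Ldhb an adjusted p of 0.875 (limma). The 5 tested genes whose values, centred on each gene's mean, followed Ldhb most closely over the 6 libraries were Hmgxb4, Ncapg2, Gpr61, Utp15 and Mcm2, with root mean square differences from 0.0233 to 0.0270 on the log2 scale, and none of them passed the adjusted threshold.

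**Figure D1:**
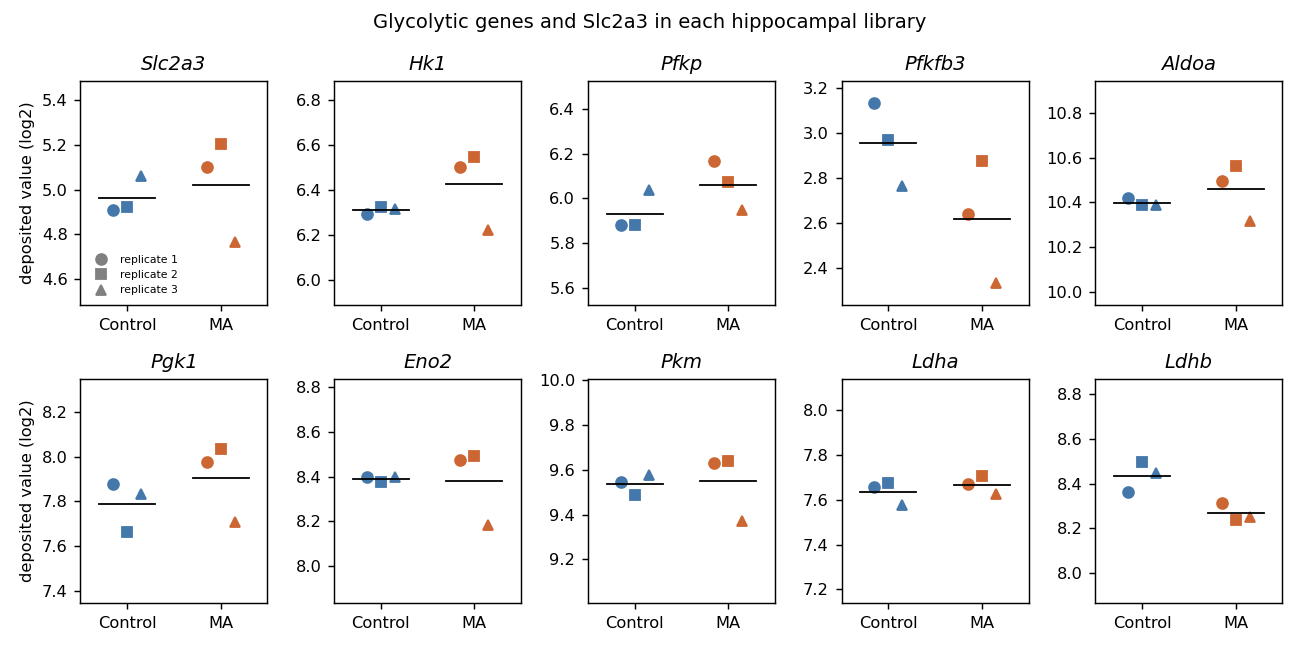
Deposited log2 values (vertical axis, each panel spanning 1 log2 unit) of the 10 genes in the 3 control (blue) and 3 MA (orange) libraries, with a marker shape for each replicate number and a line at each group mean. In Slc2a3, Hk1, Aldoa, Eno2 and Pkm the triangle of MA replicate 3 lies below all controls and the other MA libraries above them, while Ldhb separates the groups.

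The pattern by library was read as a description, since it was noticed in these values. MA replicates 1 and 2 lay above all 3 controls and MA replicate 3 below all 3 in 5 of the 10 members, Slc2a3, Hk1, Aldoa, Eno2 and Pkm. Over all tested genes this held for 8.82%, and the opposite arrangement held for 6.20%. MA replicate 3 was the lowest library for 6 of the members and MA replicate 2 the highest for 7. Averaged over the 10 members, the deviation from each gene's mean over the libraries was 0.06 in MA replicate 1, 0.10 in MA replicate 2 and -0.16 in MA replicate 3, and between -0.02 and 0.01 in the controls.

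Some markers of neurons, astrocytes, thalamus and endothelium showed the same arrangement of the libraries. Of the 12 neuron markers, 5 had the same arrangement as Slc2a3 and Hk1, and their summed level (back-transformed values) was 3943 to 4320 in the controls, 4784 and 4743 in MA replicates 1 and 2, and 3247 in MA replicate 3. Of the 10 astrocyte markers 2 had it, Slc1a2 and Slc1a3, and the list summed to 617 to 667 in the controls, 734 and 753 in MA replicates 1 and 2, and 503 in MA replicate 3. The sum of MA replicate 2 was raised by Gjb6, which lacked the arrangement. Gjb6 was 7.36 there, against 5.73, 6.36 and 6.13 in the controls, so the high astrocyte sum of that library rests largely on 1 gene. Of the 8 thalamus markers, from tissue next to the hippocampus, 3 had it, and the list summed to 27.5 to 35.8 in the controls, 70.1 and 87.8 in MA replicates 1 and 2, and 24.2 in MA replicate 3. Of the 8 endothelium markers 3 had it, and the mean deviations of the list were 0.36, 0.16 and -0.24 in MA replicates 1 to 3. By summed level, however, MA replicate 3, at 166, lay within the controls (151 to 172). Outside the marker lists, the 15 genes of pyruvate entry into mitochondria had mean deviations of 0.11, 0.09 and -0.13 in MA replicates 1 to 3. Their sums there, 648, 637 and 625, did not show the arrangement against 629 to 659 in the controls. None of the 10 oligodendrocyte markers had this arrangement. The 10 markers of hippocampal principal cells summed to 497 to 628 in the controls and to 441 to 497 in MA, with 3 lower at an unadjusted p under 0.05 (limma; 5.46% of all tested genes). No marker of these lists was at the lowest value of a library, and the part of cell makeup or of thalamic tissue in the members' values was not tested.

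**Figure D2:**
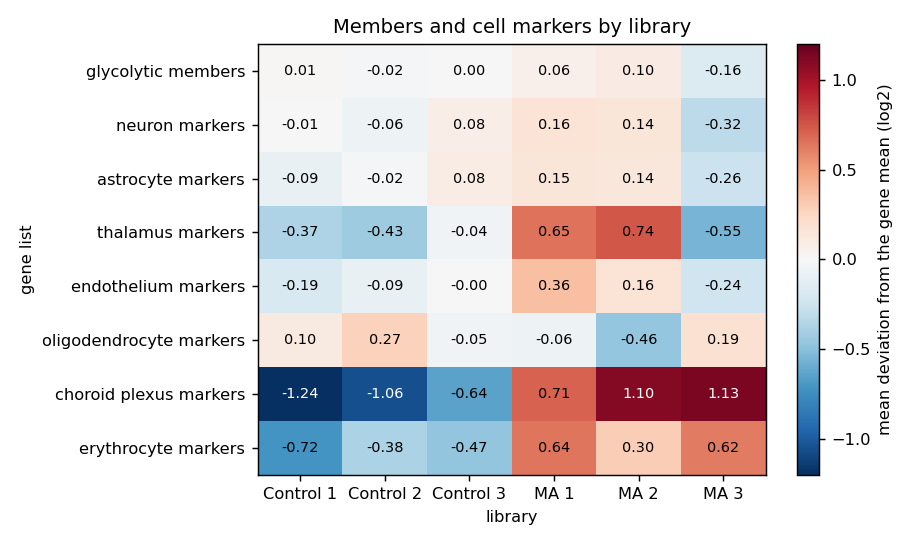
Mean deviation (log2, colour and printed value) of the members and of marker lists from each gene's mean over the 6 libraries, with libraries across and lists down. Members, neuron, astrocyte, endothelium and thalamus markers are on average high in MA replicates 1 and 2 and low in MA replicate 3, at -0.16, -0.32, -0.26, -0.24 and -0.55 there, while choroid plexus and erythrocyte markers are high in all 3 MA libraries. The astrocyte mean of MA replicate 2 is raised mainly by Gjb6.

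Without MA replicate 3, the count of members at an unadjusted p under 0.05 rose from 1 to 6 of 10, while the share of all tested genes rose from 10.4% to 23.3%. These were Slc2a3, Hk1, Pfkp, Aldoa and Pgk1, all higher in the 2 remaining MA libraries, and Ldhb, which was lower. Hk1 had the smallest p of them, with a difference of 0.21 on the log2 scale (95% interval 0.079 to 0.35, limma adjusted p = 0.0972). With sample quality weights the count was also 6 of 10, against 26.3% of all tested genes. No member passed the adjusted threshold without this library, at which 1.93% of tested genes were called. Ldhb kept its size, with a log2 fold change of -0.16 (95% interval -0.31 to -0.01). The groups did not overlap for 8 of the 10 members without MA replicate 3, against 42.9% of all tested genes. For Slc2a3, Hk1, Aldoa, Eno2 and Pkm this follows by definition from the arrangement by library described above. The rise in the count of members is likewise not independent of that arrangement, which was seen first, so neither adds support.

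**Figure D3:**
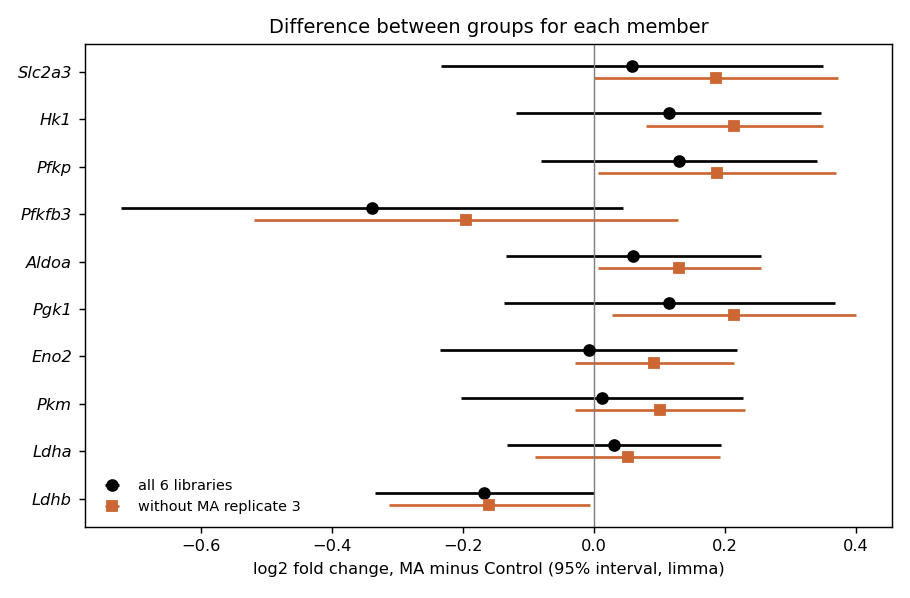
Log2 fold change (horizontal axis, points) with its 95% interval from limma (lines) for each member, with all 6 libraries (black) and without MA replicate 3 (orange). With all libraries only the interval of Ldhb, -0.33 to -0.0007, excludes 0, and without MA replicate 3 those of Slc2a3, Hk1, Pfkp, Aldoa and Pgk1 lie above 0.

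Partner genes that serve the same step were compared within each library. A constant shift of a library leaves such a difference as it is, but bringing libraries to one distribution by rank does not. The 8 pairs were tested by exact permutation, for which 0.1 is the smallest two-sided p. Ldhb exceeded Ldha in all 6 libraries, by 0.70, 0.82 and 0.87 on the log2 scale in the controls and by 0.64, 0.53 and 0.63 in the libraries labelled MA. The groups did not overlap, and the RPKM ratio of Ldhb to Ldha was on average 1.75 in the controls and 1.52 in MA. The difference of -0.20 had an exact permutation p of 0.1 (adjusted over the 8 pairs, p = 0.533). As reads of Ldha could be split with its 2 named copies, this balance and its ratios are uncertain.

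Eno2 stood below Eno1, the widely expressed enolase, in all 6 libraries, by -0.39 ± 0.06 in the controls and -0.53 ± 0.11 in MA (SD, n = 3). The change of -0.14 had overlapping groups (exact permutation test, p = 0.2). Pfkfb3 and Pfkfb2, another gene of the same bifunctional enzyme family, differed by 0.14 ± 0.32 in the controls and -0.35 ± 0.20 in MA (SD, n = 3), again with overlap (exact permutation test, p = 0.2). Eno1 has the near-identical copy Eno1b, with which reads could be split, so the enolase balance is uncertain.

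The other pairs kept their order in all 6 libraries. Slc2a3 was below Slc2a1 throughout, by -0.99 ± 0.22 in the controls and -1.04 ± 0.08 in MA (log2, SD, n = 3), and Slc2a1 itself had a log2 fold change of 0.11 (limma adjusted p = 0.877). Hk1 exceeded Hk2, the inducible hexokinase, by 4.75 ± 0.54 in the controls and 4.90 ± 0.35 in MA (log2, SD, n = 3). Hk2 was low, with a control mean of 2.10 after back-transformation, so the ratio varied widely between libraries. The RPKM ratio of Hk1 to Hk2 was on average 45.1 in the controls and 46.8 in MA. Aldoa exceeded Aldoc, the brain aldolase that is strong in astrocytes, 2.69 times in the controls and 2.60 times in MA. Pfkp was below both Pfkm and Pfkl, with ratios to Pfkm of 0.607 and 0.606. None of these balances differed beyond the spread between libraries (exact permutation p from 0.5 to 1).

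**Figure D4:**
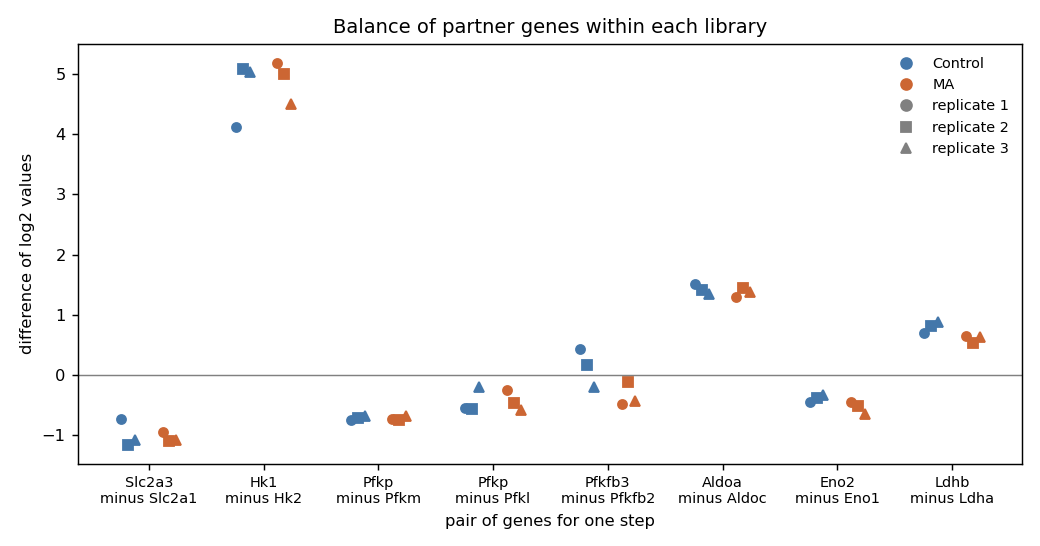
Difference of the log2 values of 2 partner genes within a library (vertical axis) for the 8 pairs (horizontal axis), with control libraries in blue, MA libraries in orange and a marker shape for each replicate number. Ldhb minus Ldha lies between 0.70 and 0.87 in the controls and between 0.53 and 0.64 in MA, and in the other pairs the groups overlap.

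None of the remaining glycolytic enzymes differed between the groups past the adjusted threshold. Of 29 genes listed 24 were tested, and 1 had an unadjusted p under 0.05, against 10.4% of all tested genes. The median log2 fold change of the 24 was 0.04 against -0.01 over all tested genes. Their arrangement by library differed from that of the members in value, with mean deviations of -0.07 in MA replicate 1, -0.0002 in MA replicate 2 and 0.12 in MA replicate 3, and 2 of the 24 had MA replicates 1 and 2 above and MA replicate 3 below every control. Gapdh, the triose phosphate dehydrogenase that the study used as its qPCR reference, was 11.1, 11.2 and 11.3 in the controls and 11.2, 11.0 and 11.2 in the MA libraries (log2 fold change -0.06, limma adjusted p = 0.876). Tigar, a phosphatase that lowers fructose 2,6-bisphosphate, was 3.39, 3.12 and 3.12 in the controls and 2.87, 3.05 and 2.85 in MA, a log2 fold change of -0.29 (limma adjusted p = 0.446). Bpgm, the bisphosphoglycerate mutase best known from red cells, was 4.97, 4.88 and 4.96 against 5.09, 5.02 and 5.19 (log2 fold change 0.16, limma adjusted p = 0.555). Tigar and Bpgm, 2 of the 24, did not overlap between the groups, against 17.5% of all tested genes. The 5 erythrocyte markers, among them Hba-a1 and Hbb-bs, summed to 1599 to 2024 in the controls and to 3319 to 4378 in MA, and their part in the values of Bpgm was not tested.

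Among 14 tested transporters of sugars and monocarboxylates, 0 passed the adjusted threshold and 4 were higher in MA at an unadjusted p under 0.05, against 4.99% of all tested genes in that direction. Slc16a8 is a lactate transporter known from choroid plexus and retinal pigment epithelium. It was 0.18, 0.40 and 0.33 in the controls and 1.43, 1.42 and 2.41 in MA. That is 1.45 higher on the log2 scale (SE 0.26, limma adjusted p = 0.117). Each control lay under the filter value of 0.5 after back-transformation (control mean 0.235). Slc16a8 was thus tested only through its MA libraries, where it is high. Slc2a12, the glucose transporter GLUT12, was 0.67, 0.61 and 0.82 against 1.51, 2.35 and 1.82 (log2 fold change 1.19, limma adjusted p = 0.104). Emb, a partner protein of monocarboxylate transporters, had a log2 fold change of 0.57 (limma adjusted p = 0.220) without overlap. These 3 genes had the highest positive differences of the pathway lists. Of the 8 choroid plexus markers 4 passed the adjusted threshold, Folr1, Kl, Clic6 and Aqp1, while Ttr did not (limma adjusted p = 0.0887). Aqp1 and Prlr, of this list, met the filter only because of their MA libraries, where they are high. Their control means were 0.297 and 0.291 after back-transformation, so the call of Aqp1 adds no support. The 8 summed to 65.8 to 421 in the controls and to 1779 to 5080 in MA. Most of these sums was Ttr, with a mean of 211 in the controls and 3010 in MA after back-transformation. Ttr, Folr1, Kl and Clic6 were above the lowest value of each library. The part of these markers in the transporter values was not tested. Without MA replicate 3 the adjusted p of Slc16a8 was 0.0248 (limma). Bsg (basigin), which brings the main lactate transporters to the membrane, was the fourth. It was 8.85 in each control and 9.05 ± 0.08 in MA (SD, n = 3), without overlap (log2 fold change 0.21, limma adjusted p = 0.385). Groups did not overlap for 4 of the 14 transporters, against 17.5% of all tested genes.

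Downstream of pyruvate, 1 gene of 15 had an unadjusted p under 0.05, against 10.4% of all tested genes. This was Pdk2, a kinase that switches off pyruvate dehydrogenase. It was 5.40, 5.53 and 5.49 in the controls and 5.86, 5.88 and 5.74 in MA, which is 0.36 higher on the log2 scale (SE 0.08, limma adjusted p = 0.208), and its limma adjusted p was 0.0455 without MA replicate 3. None of the 11 genes of the NADH shuttles had an unadjusted p under 0.05. In the pentose phosphate pathway 1 of 8 tested genes did, Pgd, at 3.92 ± 0.03 in the controls and 4.19 ± 0.04 in MA (SD, n = 3; log2 fold change 0.27, limma adjusted p = 0.306). Rpia, of the same pathway, had groups that did not overlap, as in 17.5% of all tested genes, and a log2 fold change of -0.11 (limma adjusted p = 0.744).

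Glycogen genes held 5 of 20 with an unadjusted p under 0.05, 2 higher and 3 lower in MA, against 10.4% of all tested genes in either direction, 4.99% higher and 5.46% lower, and 0 past the adjusted threshold. The 2 phosphoglucomutases went in opposite directions. The row named Pgm1 (ENSMUSG00000029171) was 2.43, 2.47 and 2.09 in the controls and 1.68, 1.72 and 1.62 in MA (log2 fold change -0.66, SE 0.13, limma adjusted p = 0.141). The row named Pgm2 (ENSMUSG00000025791) was 4.16 ± 0.04 in the controls and 4.45 ± 0.11 in MA (SD, n = 3; log2 fold change 0.29, limma adjusted p = 0.329). RefSeq lists each of these symbols as a synonym of the other gene, so the identifiers decide. Ugp2, which makes UDP-glucose, was 4.90 ± 0.05 against 4.49 ± 0.09 (SD, n = 3; log2 fold change -0.41, limma adjusted p = 0.165). Pygm, the muscle glycogen phosphorylase, was 3.16, 3.65 and 3.45 in the controls and 3.76, 3.76 and 4.08 in MA (log2 fold change 0.44, limma adjusted p = 0.380). Phkg1, the catalytic subunit of muscle phosphorylase kinase, was 3.56, 3.52 and 3.41 in the controls and 2.94, 2.92 and 3.33 in MA (log2 fold change -0.43, limma adjusted p = 0.329), and passed the adjusted threshold without MA replicate 3 (limma adjusted p = 0.0361). Among 20 regulators of glycolysis, from Hif1a to the AMP-activated kinase subunits, 0 had an unadjusted p under 0.05, against 10.4% of all tested genes. Hif1an, which restrains the hypoxia factor, had groups that did not overlap, as in 17.5% of all tested genes. Its log2 fold change was -0.13 (limma adjusted p = 0.685).

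**Figure D5:**
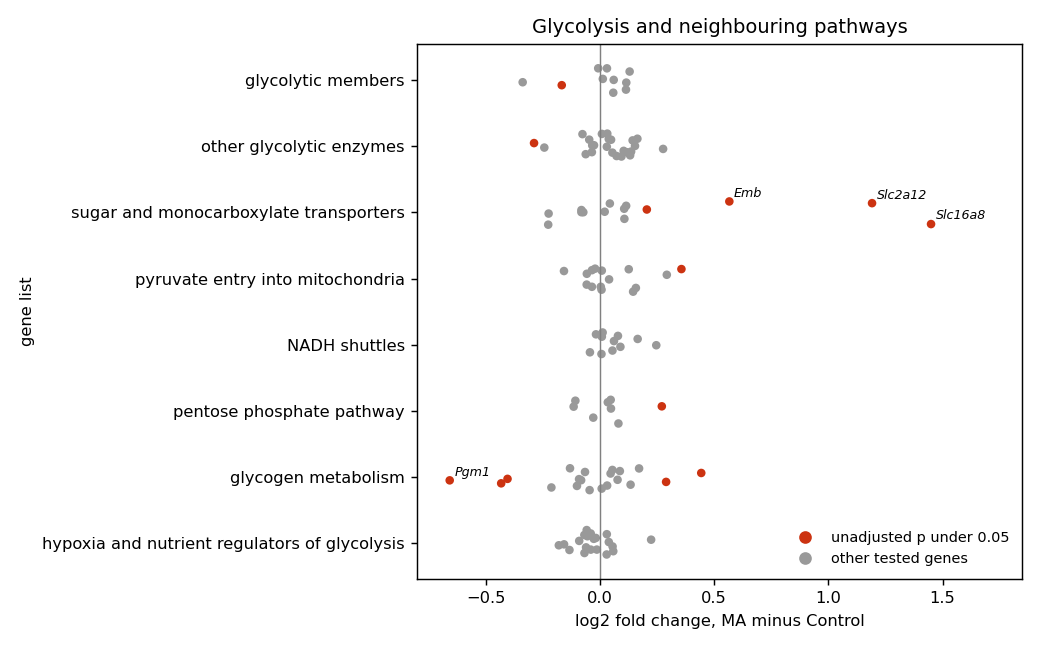
Log2 fold change, MA minus Control (horizontal axis), of each tested gene in the 10 members and 7 neighbouring lists (rows, points spread vertically only to separate them), with an unadjusted p under 0.05 in red. Most points lie near 0, and those beyond 0.5 in size, Slc16a8, Slc2a12, Emb and Pgm1, are named.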

How the data were processed

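Hippocampal RNA of 3 control and 3 MA mice was analysed. Read pairs were aligned by the authors (Hisat2 2.0.5), counted (featureCounts 1.5.0-p3) and scaled to FPKM. RNA and library kits differ between the labels (Qiagen, TruSeq) and the methods (RNA-Bee, NEB Next Ultra). The submitters' processing notes name Bowtie 0.12.2, mm8 and mm9. The deposited values are log2 values by their range. The log step and the common distribution are not described, and depth is unknown. The study's count test (DESeq2) could not be run on such values.

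Genes reaching 0.5 after back-transformation in no fewer than 3 libraries were tested with limma 3.58.1 in R 4.3.3 (trend on the mean level, Benjamini-Hochberg adjustment over 13321 genes). The test was tried on simulated data. Lists were described by counts and medians. Members and lists were chosen with earlier results of these data known. Named genes were all members, partner genes, Gapdh, the 4 activity genes and, in each list, those past the adjusted threshold and up to 3 others with the smallest p whose groups do not overlap. Bsg, Pygm and Phkg1 were named after their values were seen. Coordinates are from GENCODE M21 on GRCm38 and give location only. Same-numbered libraries are not stated to be paired. P-values measure the spread between these libraries. Alternatives were pseudocounts of 0.1 and 0.01, other filters, scalings and tests, the replicate block, and each library left out in turn. The count of members at an unadjusted p without MA replicate 3 was added after the data were seen.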

Additional observations from a re-analysis of the deposited data

How the results depend on the processing

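No member passed the adjusted threshold under any of the 15 alternatives (smallest limma adjusted p 0.0966, for Hk1 with sample quality weights). The direction of Hk1, Pfkp, Pfkfb3, Aldoa, Pgk1 and Ldhb was kept in all 15. Of these, the other filters, the fit without the eBayes trend and the replicate block leave a log2 fold change unchanged, so they could not turn it. Leaving out 1 library in turn gave log2 fold changes from -0.47 to -0.20 for Pfkfb3 and from 0.052 to 0.21 for Hk1. The ranges were 0.077 to 0.19 for Pfkp, 0.0073 to 0.13 for Aldoa, 0.051 to 0.21 for Pgk1 and -0.20 to -0.14 for Ldhb. Eno2 turned positive with sample quality weights, at 0.082. Leaving out 1 library in turn also gave log2 fold changes from -0.062 to 0.092 for Eno2, from -0.034 to 0.10 for Pkm, from -0.032 to 0.19 for Slc2a3, from -0.00027 to 0.051 for Ldha and from -0.11 to 0.018 for Gapdh. Members at an unadjusted p under 0.05 were 6 with sample quality weights, 0 with quantile normalization, without the eBayes trend and with the replicate block, and 0 to 6 with 1 library left out. The cause was not tested. Of the pathway genes 9 passed the adjusted threshold with sample quality weights, and 0 to 3 with 1 library left out. The 3, without MA replicate 3, were Pdk2, Phkg1 and Slc16a8, which passed the filter through its MA libraries alone. All tested genes called, 35, became 3 with no filter (more genes tested), 20 with a minimum mean of 5, 586 with sample quality weights, 15 with the replicate block and 0 to 257 with 1 library left out.

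Leaving out 1 library in turn moved the partner balances to between -0.13 and 0.080 for Slc2a3 and Slc2a1, -0.16 and 0.34 for Hk1 and Hk2, -0.024 and 0.013 for Pfkp and Pfkm, -0.081 and 0.13 for Pfkp and Pfkl and between -0.082 and 0.0021 for Aldoa and Aldoc. The balance of Ldhb and Ldha kept its sign throughout, from -0.25 to -0.16.

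The deviations of same-numbered libraries correlated at -0.197, -0.242 and -0.337 across genes, so the numbers were not taken as pairs. With the replicate block, 0 members and 0 pathway genes passed the adjusted threshold. The difference of Ldhb and Ldha stayed at -0.20, which was fixed in advance, as such a block cannot change a group difference in a balanced design. Depth is unknown, and values on shared ranks limit small differences of highly expressed genes.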
